A study of Mus musculus with 48 samples.

Results

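EU-labelled RNA captured from the superior colliculus was set against EU-labelled RNA captured from immunopanned eye cells, both from mice at postnatal day 14 (P14). The 2 groups hold 6 of the 48 libraries in the series: 3 collicular libraries (tissue SC, EU labeled, P14, AX codes in their titles) and 3 panned libraries (source Eye, labelled RGC, EU labeled, Immunopanning, P14). Members were taken by these titles, with every expressed gene, and 15540 of the 54331 genes in the table passed the filter on low counts. All 6 libraries were labelled wild type and naïve for axotomy, so no mutation or experimental axotomy is given for either group. What cell isolation did to the axons of the panned cells is not described. Per the labels' protocol, EU was injected into the eye, RNA of superior colliculi from 3 animals was pooled, and EU-containing RNA was captured through biotin and amplified before sequencing. The same protocol text stands on the panned libraries, and how the eye cells were panned is not described in it. Whether the libraries of a group came from different animals is not given, and each p-value rests on library-to-library spread, which may be technical. Tissue and cell isolation change together between the 2 groups and cannot be told apart here.

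Retinal ganglion cells (RGCs) are the output neurons of the retina. Their cell bodies lie in the eye and their axons run through the optic nerve to end on neurons of the superior colliculus, a layered visual centre of the midbrain. RNA is made in the nucleus of the cell body, and a part of it is carried by motor proteins along microtubules into the axon, where it can be translated far from the soma. Ethynyl uridine (EU) is a uridine analogue that cells build into newly made RNA, and its alkyne group lets that RNA be tagged with biotin and pulled out of the rest. In the design, RNA labelled in the eye and recovered from the colliculus stands for RNA carried along RGC axons, and RNA recovered from panned RGCs stands for the RNA of their cell bodies.

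Marker genes of the tissue, rather than of a single cell type, set the 2 groups apart. RGC marker genes summed to 1269, 1699 and 1401 normalised counts (CPM, scaled to a common library size with edgeR's TMM factors) in the collicular libraries, against 235, 951 and 1043 CPM in the panned libraries. In sum, the libraries labelled RGC held no more of this list. Its members did not go 1 way: of 17 tested, 4 were called higher and 3 lower in the collicular libraries, as given below. The sum follows the members of highest level and does not stand for each of them. Thy1, Nefl and Nefh held much of the collicular sum, while Rbpms, Pou4f2, Isl1 and Chrna6 added little to it. What share of the sum came from RGCs was not tested. The mature oligodendrocyte list summed to 11396, 12638 and 9722 CPM in the collicular libraries, against 264, 345 and 325 CPM in the panned ones. The rod photoreceptor list summed to 187, 157 and 681 CPM in the collicular libraries, against 164045, 18913 and 27223 CPM in the panned ones. RNA of myelinating glia of the brain and of light-sensing cells of the retina was thus among the captured RNA. The groups are called collicular and panned below in place of axonal and somal. In bulk RNA, fewer cells of a type and less RNA per cell cannot be told apart. Library totals ran from 21487476 to 23308411 counts in the collicular group and from 20557825 to 26025619 in the panned group. The 3 panned libraries also differed among themselves: Pearson correlations of log2 CPM were 0.72 to 0.77 between them and 0.87 to 0.95 between collicular libraries. Panned replicate 1 held the most rod RNA, and panned replicates 2 and 3 held the most Müller glia, lens crystallin and mitochondrial RNA.

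**Figure D1:**
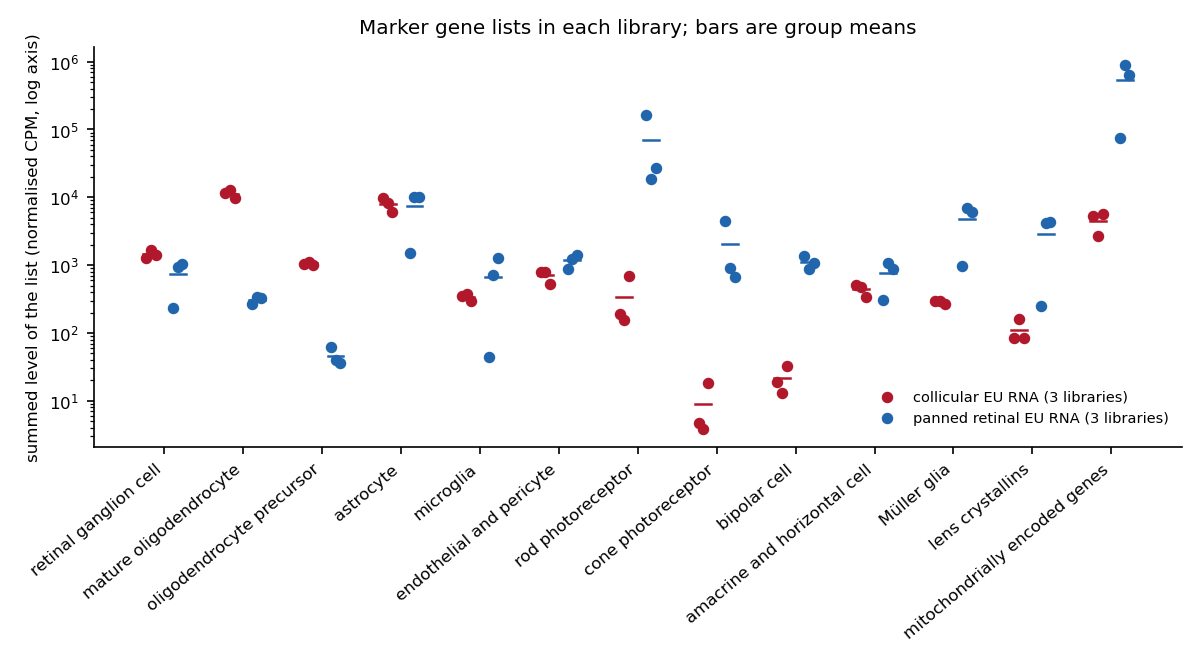
Summed level of 13 marker lists in each of the 6 libraries (normalised CPM, log axis); points are libraries and bars are group means. The RGC and oligodendrocyte sums lie higher in all 3 collicular libraries, while members of the RGC list went both ways. The endothelial and pericyte, rod, cone, bipolar, Müller glia, crystallin and mitochondrial sums lie lower there than in all 3 panned libraries. Members of the endothelial and pericyte list went both ways.

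Counts over all genes give the background for every gene group below. A gene was called where edgeR's quasi-likelihood test gave a Benjamini-Hochberg adjusted p under 0.05 over all 15540 genes, and fold changes are collicular over panned. 10.7% of tested genes were called higher in the collicular libraries and 11.3% were called lower, 21.9% in all. In 46.8% of tested genes the 3 collicular and 3 panned values did not overlap. The median log2 fold change over all tested genes was 0.11. These calls lean on single libraries: without collicular replicate 2, 322 genes were called higher and 628 lower, and without collicular replicate 1, 386 and 654. Without collicular replicate 3, the counts were 678 and 1247. They also lean on which eye libraries stand on the other side. Against the 3 immunopanned libraries made without EU capture edgeR called 0 genes, with 4709 of 15433 at an unadjusted p under 0.05. With only replicates 2 and 3 of those it called 3653 higher and 3429 lower. Among these were 1234 and 1538 of the genes called higher and lower in the main fit. Against FACS-sorted eye cells it called 3160 higher and 2812 lower.

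The base composition of a gene's transcripts ran along with its change. Genes called higher had a median of 54.5% G and C (lower and upper quartile 50.4% and 57.7%), genes called lower had a median of 44.5% (42.0% and 47.7%), and genes not called had 50.2%. The median log2 fold change was -1.63 for the 749 genes under 40% G and C and -2.05 for the 2074 genes from 40% to 44%. It was 0.12 for the 3349 genes from 48% to 52%, and 2.18 for the 591 genes at 60% or more. In that last bin 29.9% of genes were called higher and 2.03% lower, whereas from 40% to 44% the shares were 2.75% and 29.3%. Across 15531 genes, which share the same 6 libraries, Spearman's rho between the percent of G and C and the log2 fold change was 0.44, given as a description, and that with transcript length was 0.04. The tilt differed between libraries. Median log2 CPM of genes with at least 56% G and C, minus that of genes under 44%, was 3.36, 3.72 and 1.79 in the collicular libraries and -0.46, -0.97 and -0.35 in the panned libraries. The other 17 collicular EU libraries of the series, at other ages, genotypes or chase times among them, ran from -1.41 to 3.86 on this measure. Of these, the 2 also titled SC, EU labeled, P14, with EU codes, were at -0.23 and 2.03. Each gene group below is also given after a smooth trend of log2 CPM on base composition was removed from every library. That fit called 1059 genes higher and 1305 lower, of which 903 and 1020 were called in the same direction without it, and 0 in the opposite one. What part base composition had in any single gene's change was not tested.

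**Figure D2:**
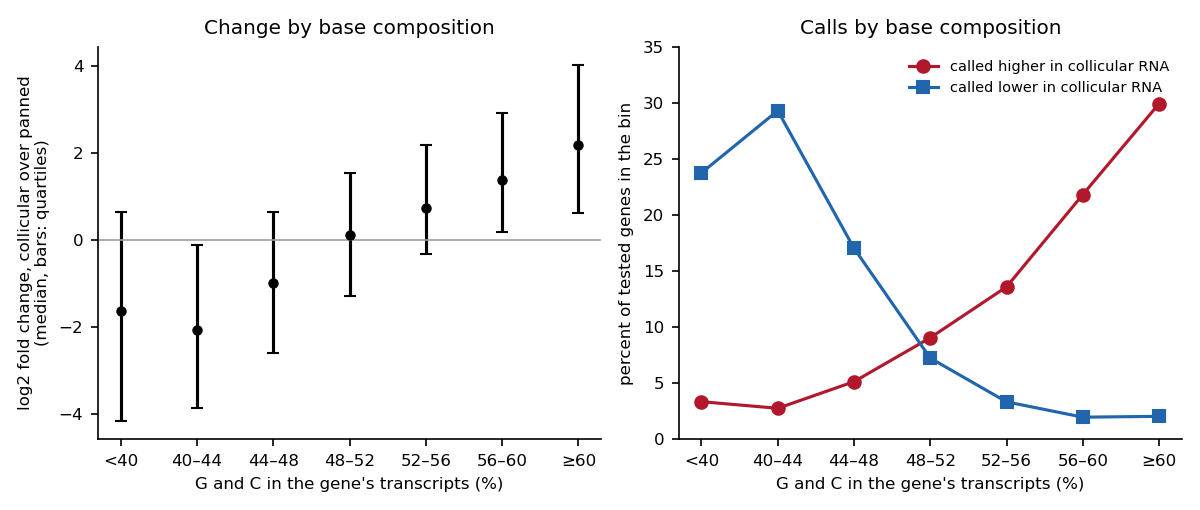
Left, median log2 fold change (collicular over panned, bars are quartiles) of tested genes in 7 bins of the percent of G and C in their transcripts; right, percent of each bin called higher or lower. The median runs from -2.05 at 40% to 44% up to 2.18 at 60% or more, and from that bin upwards the share called higher grows at each step, to 29.9%.

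Genes that define RGCs did not move one way. Of 23 members 17 were tested, 4 were called higher and 3 lower, with a median log2 fold change of -0.0036. In all, 41.2% of tested members were called, against 21.9% of all tested genes. Rbpms, an RNA-binding protein used to stain RGCs, had 0.46, 1.21 and 4.3 CPM in the collicular libraries, against 1.6, 4.39 and 0 CPM in the panned libraries, close to 0 in both groups. Pou4f1, a transcription factor of RGCs, had 3.61, 5.9 and 23.9 CPM in the collicular libraries, against 0.185, 7.38 and 100 CPM in the panned libraries, and the groups overlapped, with panned replicates 1 and 3 at opposite ends. Pou4f2, its relative, had 0, 0 and 0.614 CPM in the collicular libraries, against 0, 16.8 and 0 CPM in the panned libraries, and did not pass the filter. Thus 1 of the 3 panned libraries held clear Pou4f1 and 1 other held Pou4f2.

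Isl1, a LIM-homeodomain factor of RGCs and also of bipolar and amacrine cells, had 0, 0 and 0 CPM in the collicular libraries, against 145, 34.2 and 32.5 CPM in the panned libraries. It was at 0 in every collicular library, at least 2546-fold lower (edgeR adjusted p = 0.00351, floor of 3 counts over the group). Chrna6, a nicotinic acetylcholine receptor subunit of RGCs, had 0.0919, 0 and 0.246 CPM in the collicular libraries, against 14.2, 59.7 and 61.3 CPM in the panned libraries, a log2 fold change of -8.62 ± 1.46 (SE, edgeR adjusted p = 0.00647). Both lay lower in all 3 collicular libraries. Nell2, a secreted protein that guides axons, had 118, 193 and 106 CPM in the collicular libraries, against 1.0, 12.5 and 4.04 CPM in the panned libraries, a log2 fold change of 4.58 ± 0.94 (SE, edgeR adjusted p = 0.0126). Thy1, a membrane glycoprotein used to pan RGCs, had 611, 845 and 425 CPM in the collicular libraries, against 2.78, 132 and 126 CPM in the panned libraries. The groups did not overlap, but the test was not passed (edgeR adjusted p = 0.0888). Sncg had 20.5, 19.3 and 11.6 CPM in the collicular libraries, against 1.41, 53.9 and 73.5 CPM in the panned libraries and was not called either (edgeR adjusted p = 0.439). In Chrna6, Nell2, Thy1 and Sncg, panned replicate 1, the library richest in rod RNA, lay below panned replicates 2 and 3. In Isl1 it was highest. Against FACS-sorted eye cells in place of the panned ones, Pou4f1 and Sncg were called higher, with log2 fold changes of 6.04 and 4.5 (edgeR adjusted p = 0.0082 and 0.00563). After removal of the base composition trend, 2 members were called higher and 3 lower, and the count of higher members was 1 to 5 when 1 library was left out (lowest without collicular replicates 1, 2 or 3 or panned replicate 2).

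The cytoskeleton of axons is built of microtubules, neurofilaments and actin. Of 14 tubulins 4 were called higher and 0 lower, with a median log2 fold change of 1.14. That is 28.6% called, against 21.9% of all tested genes. Tuba4a, an alpha tubulin of mature neurons (chromosome 1, 75214228 to 75219865, mm10), had 464, 641 and 449 CPM in the collicular libraries, against 106, 33.1 and 45.6 CPM in the panned libraries. Every collicular value was at least 4 times every panned one, a log2 fold change of 3.08 ± 0.58 (SE, edgeR adjusted p = 0.00947), and it was called in all 6 fits that left out 1 library. Tubb2b, a beta tubulin of young neurons, had 185, 189 and 196 CPM in the collicular libraries, against 9.01, 44.7 and 47.9 CPM in the panned libraries, a log2 fold change of 2.49 ± 0.67 (SE, edgeR adjusted p = 0.030). Tubb2b was not called without collicular replicates 1, 2 or 3 or panned replicate 2, each left out in turn (edgeR adjusted p = 0.0532 to 0.0954). Tuba1a, an alpha tubulin of neurons, and Tubb2a were not called, and Tuba1a had 2585, 3270.5 and 2187 CPM in collicular and 1442, 1392 and 2206 CPM in panned libraries. Tubulin genes are alike in coding sequence, so the split of reads between them is uncertain. With the base composition trend removed 2 of 14 tubulins were called and the list's median was -0.18, of the other sign, so the list has no direction that holds under both fits. Against 2 immunopanned libraries without EU capture, 0 tubulins were higher and 8 lower. The count of higher tubulins was 2 to 8 when 1 library was left out (lowest without collicular replicates 1, 2 or 3 or panned replicate 2).

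Neurofilaments fill the axon shaft and set its calibre. Ina, the alpha-internexin of neurofilaments, had 689.8, 929.8 and 555 CPM in the collicular libraries, against 11.8, 97.3 and 73.5 CPM in the panned libraries, a log2 fold change of 3.58 ± 0.77 (SE, edgeR adjusted p = 0.0145). Ina was not called without collicular replicate 2 (edgeR adjusted p = 0.0539). Nefh, the heavy neurofilament chain, had 121, 152 and 99.3 CPM in the collicular libraries, against 11.1, 14.2 and 39.1 CPM in the panned libraries, a log2 fold change of 2.54 ± 0.65 (SE, edgeR adjusted p = 0.0258). Nefh was not called without collicular replicates 1, 2 or 3 or panned replicate 2, each left out in turn (edgeR adjusted p = 0.0533 to 0.0986). Prph, peripherin, had 4.23, 6.13 and 5.16 CPM in the collicular libraries and 0 in every panned library, at least 97.3-fold higher. Prph was not called without collicular replicates 1, 2 or 3, each left out in turn (edgeR adjusted p = 0.0633 to 0.086). Nefm and Nefl, the medium and light chains, were not called, and Nefl had 203, 247 and 309 CPM in collicular and 26.5, 399 and 359 CPM in panned libraries. The chains thus did not move together: 3 of 5 were called higher, 1 of 5 with the base composition trend removed, and 0 to 3 when 1 library was left out (lowest without collicular replicate 2).

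Proteins that bind microtubules bundle them and set their dynamics. Among 27 tested, 7 were called higher and 1 lower, 29.6% in all, against 21.9% of all tested genes. Stmn4, a stathmin that binds free tubulin (chromosome 14, 66344296 to 66361680), had 60.7, 69.3 and 52 CPM in the collicular libraries, against 0.556, 0.0664 and 1.51 CPM in the panned libraries, a log2 fold change of 6.42 ± 1.12 (SE, edgeR adjusted p = 0.00699). Map7d1, a relative of the kinesin-1 cofactor MAP7, had 288, 292 and 169.7 CPM in the collicular libraries, against 13.7, 18.8 and 8.15 CPM in the panned libraries, a log2 fold change of 4.2 ± 0.59 (SE, edgeR adjusted p = 0.00351). Both were far higher in each collicular library. Stmn4 was also called with the base composition trend removed (5.67, edgeR adjusted p = 0.015), and Map7d1, at 62.2% G and C, was not (1.77, edgeR adjusted p = 0.054). Mapt, tau, the microtubule-associated protein of axons, had 983, 1228 and 762 CPM in the collicular libraries, against 30.4, 122 and 190.5 CPM in the panned libraries, a log2 fold change of 3.12 ± 0.69 (SE, edgeR adjusted p = 0.0161). Map2, its relative of dendrites and somata, had 75.7, 51.5 and 108 CPM in the collicular libraries, against 263, 435 and 301 CPM in the panned libraries, a log2 fold change of -2.09 ± 0.50 (SE, edgeR adjusted p = 0.0219). The pair thus lay on opposite sides, with no overlap in either. Their base composition lay on opposite sides too, 55.4% G and C in Mapt and 44% in Map2, and with that trend removed neither was called (log2 fold changes of 1.76 and -0.33, edgeR adjusted p = 0.0975 and 0.589). Mapt was not called without collicular replicate 2 (edgeR adjusted p = 0.0613), and Map2 was not called without collicular replicates 1 or 2 or panned replicate 2, each left out in turn (edgeR adjusted p = 0.0553 to 0.113). In the fit on log2(TPM + 1) Map2 had a log2 fold change of 0.00 and was not called. Counts of higher members in the whole list were 3 to 10 when 1 library was left out (lowest without collicular replicate 2).

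Actin and spectrin genes split: of 28, 5 were called higher and 5 lower, 35.7% in all, against 21.9% of all tested genes. Actr2, a subunit of the ARP2/3 complex that branches actin, had 208, 210.5 and 257 CPM in the collicular libraries, against 47.9, 41.2 and 44.2 CPM in the panned libraries, a log2 fold change of 2.34 ± 0.46 (SE, edgeR adjusted p = 0.0105). At 41.4% G and C it went against the trend of base composition, and with that removed its log2 fold change was 4.5 (edgeR adjusted p = 0.00438). Actr2 was not called without collicular replicate 1 (edgeR adjusted p = 0.0535). Actb, beta-actin, had 1241, 2043 and 1971 CPM in the collicular libraries, against 94.2, 176 and 466 CPM in the panned libraries, a log2 fold change of 2.84 ± 0.66 (SE, edgeR adjusted p = 0.0193). Actb was not called without collicular replicates 2 or 3 or panned replicate 2, each left out in turn (edgeR adjusted p = 0.0559 to 0.0713). Among the lower members, Dstn, destrin, which severs actin filaments, had 29.9, 17.7 and 50.7 CPM in the collicular libraries, against 356, 394 and 449.9 CPM in the panned libraries, a log2 fold change of -3.61 ± 0.56 (SE, edgeR adjusted p = 0.00487). Capza2, a subunit of the protein that caps filament ends, had 2.76, 0.575 and 2.5 CPM in the collicular libraries, against 148, 368 and 261 CPM in the panned libraries, a log2 fold change of -7.06 ± 0.85 (SE, edgeR adjusted p = 0.00257). Arpc5, another ARP2/3 subunit, had 2.05, 4.6 and 5.08 CPM in the collicular libraries, against 50.3, 123 and 113 CPM in the panned libraries, a log2 fold change of -4.61 ± 0.72 (SE, edgeR adjusted p = 0.00493). These 3 lower genes were called in all 6 fits that left out 1 library and with the base composition trend removed (log2 fold changes of -2.45, -5.23 and -3.33), where 5 members were lower and 1 higher. Higher members were 1 to 8 when 1 library was left out (lowest without collicular replicates 1 or 2). Actr2 and Arpc5, which code for parts of the same complex, therefore lay on opposite sides in these libraries.

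Growth cone proteins, which serve the tip of a growing axon, had 4 of 9 members called higher, 2 of 9 with the base composition trend removed. Marcksl1, a membrane protein that links to actin, had 313, 311 and 296 CPM in the collicular libraries, against 10.4, 65.8 and 76.7 CPM in the panned libraries, a log2 fold change of 2.59 ± 0.72 (SE, edgeR adjusted p = 0.0328). Marcksl1 was not called without collicular replicates 1, 2 or 3 or panned replicate 2, each left out in turn (edgeR adjusted p = 0.0625 to 0.0977). Receptors that guide axons and hold them in place gave 7 higher and 1 lower of 24 tested. Called members were 44.4% of the growth cone list and 33.3% of the receptor list, against 21.9% of all tested genes. Nfasc, neurofascin, which anchors the axon's initial segment and the paranodes formed with myelin, had 562, 867 and 614 CPM in the collicular libraries, against 40.5, 17.7 and 9.11 CPM in the panned libraries, a log2 fold change of 4.92 ± 0.69 (SE, edgeR adjusted p = 0.0036). Dscam, an adhesion receptor for spacing of neurons and arbors, had 130.0, 224 and 98.7 CPM in the collicular libraries, against 5.19, 3.65 and 0.685 CPM in the panned libraries, a log2 fold change of 5.56 ± 0.88 (SE, edgeR adjusted p = 0.00515). Nrp1, a receptor of semaphorins, had 40.8, 45.8 and 62.9 CPM in the collicular libraries, against 0.297, 1.86 and 3.15 CPM in the panned libraries, a log2 fold change of 4.82 ± 1.01 (SE, edgeR adjusted p = 0.0134). All 3 were called without any 1 of the 6 libraries and with the base composition trend removed, where 6 members were higher and 0 lower. Nfasc and Nrp1 are also made by collicular cells, and what share came from axons was not tested. Higher counts were 1 to 4 when 1 library was left out (lowest without collicular replicates 1 or 2) for growth cone proteins and 3 to 9 when 1 library was left out (lowest without collicular replicates 1 or 2) for the receptors.

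Kinesins carry cargo towards the axon's tip and dynein, with dynactin, back towards the soma. Of 18 kinesin genes 3 were called higher and 1 lower, and of 23 dynein and dynactin genes 1 higher and 3 lower, so that 22.2% and 17.4% were called, against 21.9% of all tested genes. Kif1a, the motor that carries synaptic vesicle precursors, had 1037, 1172 and 659 CPM in the collicular libraries, against 129.8, 164 and 180.3 CPM in the panned libraries, a log2 fold change of 2.6 ± 0.47 (SE, edgeR adjusted p = 0.00769); with the base composition trend removed it was 1.06 (edgeR adjusted p = 0.0911). Klc2, a light chain of kinesin-1, had 13.8, 21.8 and 15.8 CPM in the collicular libraries, against 0.111, 0.0664 and 0 CPM in the panned libraries, a log2 fold change of 7.96 ± 1.5 (SE, edgeR adjusted p = 0.00889). Klc2 was not called without collicular replicate 2 (edgeR adjusted p = 0.0549). Actr10, a dynactin subunit of the retrograde motor, had 9.74, 9.45 and 36.9 CPM in the collicular libraries, against 229.7, 282 and 187 CPM in the panned libraries, a log2 fold change of -3.64 ± 0.70 (SE, edgeR adjusted p = 0.00987). Actr10 was not called without collicular replicates 1 or 2, each left out in turn (edgeR adjusted p = 0.0506 to 0.0519). Once the base composition trend was removed, 1 of the kinesins was called higher and 0 lower, and of the dynein and dynactin list 1 was higher and 1 lower, with a median of -0.33 in place of 0.50. Kinesin counts were 1 to 4 when 1 library was left out (lowest without collicular replicate 2), and the lower dynein and dynactin counts 1 to 3 when 1 library was left out (lowest without collicular replicates 1 or 2).

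Presynaptic genes were called in both directions in this fit, among them 2 partners of 1 complex. The vesicle fusion list had 10 members higher and 3 lower of 19, and the synaptic vesicle list 7 higher and 6 lower of 23. Called members were 68.4% and 56.5%, against 21.9% of all tested genes. The SNARE complex joins a vesicle protein to 2 proteins of the plasma membrane. Vamp2, its vesicle member (chromosome 11, 69088490 to 69092384), had 829.6, 879 and 490.0 CPM in the collicular libraries, against 99.7, 113 and 88.7 CPM in the panned libraries, a log2 fold change of 2.87 ± 0.47 (SE, edgeR adjusted p = 0.0057). Snap25, a plasma membrane member (chromosome 2, 136713453 to 136782428), had 124, 134 and 201 CPM in the collicular libraries, against 1568, 1883 and 1233 CPM in the panned libraries, a log2 fold change of -3.35 ± 0.48 (SE, edgeR adjusted p = 0.00379). So 2 partners of 1 complex lay on opposite sides, each with no overlap and each called in all 6 fits without 1 library. Vamp2 transcripts hold 56.9% G and C and those of Snap25 41.5%, and with the trend removed the log2 fold changes were 1.22 and -1.21, neither called (edgeR adjusted p = 0.063 and 0.0681). Doc2a, a calcium sensor for release, had 39.2, 40.2 and 27.4 CPM in the collicular libraries and 0 in all panned ones, at least 685-fold higher (edgeR adjusted p = 0.00357). Unc13b, which primes vesicles and is the form used at photoreceptor ribbon synapses, had 3.68, 1.12 and 4.71 CPM in the collicular libraries, against 205, 45.8 and 88.5 CPM in the panned libraries, a log2 fold change of -5.16 ± 0.88 (SE, edgeR adjusted p = 0.00671).

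Syp, synaptophysin, a membrane protein of vesicles, had 1029, 1230.2 and 681 CPM in the collicular libraries, against 129, 87.4 and 129.9 CPM in the panned libraries, a log2 fold change of 3.09 ± 0.49 (SE, edgeR adjusted p = 0.00493). Dnm1, dynamin, which pinches off membrane in recycling, had 176, 149 and 84.4 CPM in the collicular libraries, against 1.3, 3.12 and 1.71 CPM in the panned libraries, a log2 fold change of 6.06 ± 0.71 (SE, edgeR adjusted p = 0.00236). Syngr1, synaptogyrin, had 405, 431 and 229 CPM in the collicular libraries, against 33.5, 22.6 and 10.4 CPM in the panned libraries, a log2 fold change of 4.0 ± 0.62 (SE, edgeR adjusted p = 0.00493). All 3 lay several-fold higher in each collicular library and were called with the base composition trend removed (log2 fold changes of 2.4, 4.13 and 2.32). On the other side, Sypl, the synaptophysin-like gene of many tissues, had 0.919, 0.734 and 0.90 CPM in the collicular libraries, against 38.1, 102 and 105 CPM in the panned libraries, a log2 fold change of -6.58 ± 0.79 (SE, edgeR adjusted p = 0.0025). Sh3gl2, endophilin, which works beside dynamin in recycling, had 40.1, 29.4 and 47.8 CPM in the collicular libraries, against 316, 415 and 350.2 CPM in the panned libraries, a log2 fold change of -3.2 ± 0.48 (SE, edgeR adjusted p = 0.00445). Both were also called with the trend removed, at -4.43 and -2.88. There 4 and 4 members of the fusion and vesicle lists were higher, and 2 and 6 lower. The fusion list's higher count was 3 to 10 when 1 library was left out (lowest without collicular replicate 2), and the vesicle list's 3 to 8 when 1 library was left out (lowest without collicular replicates 1 or 2).

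**Figure D3:**
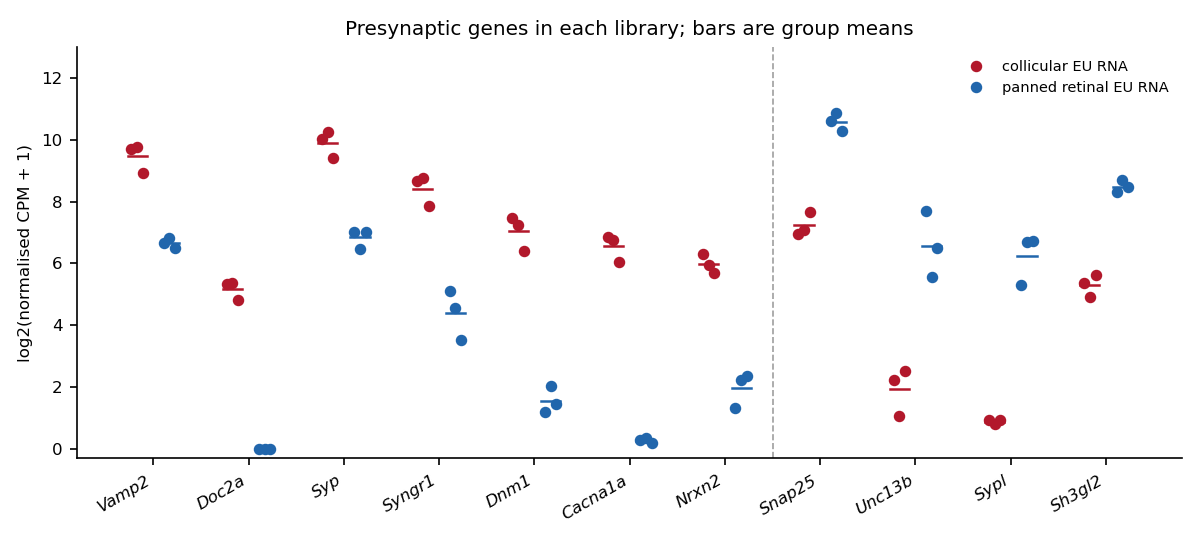
Level of 11 presynaptic genes in each library, as log2(normalised CPM + 1); points are libraries, bars are group means, and the dashed line parts genes called higher from genes called lower in the collicular libraries. Vamp2 and Snap25, which code for partners in 1 complex, lie on opposite sides with no overlap. Neither was called with the base composition trend removed.

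Active zones, where vesicles fuse, gave 7 higher and 0 lower of 20, and 6 of 20 with the base composition trend removed. In the main fit 35% were called, against 21.9% of all tested genes. Cacna1a, the pore of the P/Q-type calcium channel that triggers release (chromosome 8, 84388440 to 84640246), had 115, 106 and 65.3 CPM in the collicular libraries, against 0.223, 0.266 and 0.137 CPM in the panned libraries. It was under 0.3 CPM in every panned library, a log2 fold change of 8.8 ± 0.80 (SE, edgeR adjusted p = 0.00154). Nrxn2, a presynaptic adhesion protein, had 78.8, 61 and 51 CPM in the collicular libraries, against 1.52, 3.65 and 4.11 CPM in the panned libraries, a log2 fold change of 4.36 ± 0.75 (SE, edgeR adjusted p = 0.00647). Cacna2d2, an auxiliary calcium channel subunit, had 69.8, 50.7 and 47.8 CPM in the collicular libraries, against 0.742, 3.12 and 1.1 CPM in the panned libraries, a log2 fold change of 5.09 ± 0.88 (SE, edgeR adjusted p = 0.00668). These 3 genes were called in all 6 fits without 1 library. Counts of higher members were 4 to 10 when 1 library was left out (lowest without collicular replicates 1 or 2).

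Synapses also have a receiving side, with a scaffold under the membrane and receptors in it. The postsynaptic density list had 13 of 25 members called higher and 0 lower, and the glutamate receptor list 9 of 20 and 0. Called members were 52% and 45%, against 21.9% of all tested genes. Nrgn, neurogranin, a calmodulin-binding protein of dendrites, had 141, 172 and 94.1 CPM in the collicular libraries, against 0.0371, 0.731 and 0 CPM in the panned libraries, a log2 fold change of 9.1 ± 1.37 (SE, edgeR adjusted p = 0.00457). Nlgn2, neuroligin of inhibitory synapses, had 201, 253 and 138 CPM in the collicular libraries, against 14, 13.5 and 25.5 CPM in the panned libraries, a log2 fold change of 3.48 ± 0.56 (SE, edgeR adjusted p = 0.00545). Gria1, an AMPA receptor subunit, had 177, 325 and 233 CPM in the collicular libraries, against 6.97, 6.25 and 32.3 CPM in the panned libraries, a log2 fold change of 4.01 ± 0.79 (SE, edgeR adjusted p = 0.0108). Each lay above all panned values in all 3 collicular libraries. Grm2, a metabotropic receptor, had 20.2, 33 and 23.9 CPM in the collicular libraries and 0 in every panned one, at least 486-fold higher (edgeR adjusted p = 0.00508). Grin1, the shared subunit of NMDA receptors, had 228, 272 and 158 CPM in the collicular libraries, against 2.11, 15.9 and 12.5 CPM in the panned libraries, a log2 fold change of 4.43 ± 0.80 (SE, edgeR adjusted p = 0.00806), and just missed the threshold with the base composition trend removed (edgeR adjusted p = 0.0509). That fit called 6 of 25 and 7 of 20. Higher counts were 4 to 13 when 1 library was left out (lowest without collicular replicate 2) for the postsynaptic density and 3 to 11 when 1 library was left out (lowest without collicular replicate 1) for the receptors.

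The GABA and glycine list, the genes of inhibition, had 3 higher and 2 lower of 20 tested. That is 25% called, near the 21.9% of all tested genes, and the median log2 fold change was 0.09, against 0.11 over all genes. Slc32a1, which loads GABA into vesicles, had 41.5, 55.9 and 33.5 CPM in the collicular libraries, against 0.223, 5.05 and 3.15 CPM in the panned libraries, a log2 fold change of 3.96 ± 1.11 (SE, edgeR adjusted p = 0.034). Slc32a1 was not called without collicular replicates 1, 2 or 3 or panned replicate 3, each left out in turn (edgeR adjusted p = 0.0603 to 0.112). Gad1, which makes GABA, overlapped between groups with 30.6, 20.4 and 86.3 CPM in collicular and 29.8, 94.4 and 91.1 CPM in panned libraries. After removal of the base composition trend 1 member was higher and 1 lower. Higher members were 0 to 4 when 1 library was left out (lowest without collicular replicates 1, 2 or 3).

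Ion channels carry the action potential along the axon. Sodium and calcium channels gave 10 higher and 1 lower of 24, potassium channels 9 and 1 of 30 tested. Called members were 45.8% and 33.3%, against 21.9% of all tested genes. Kcna1, the potassium channel flanking nodes of myelinated axons, had 126, 179 and 122 CPM in the collicular libraries, against 0.0742, 1.2 and 0.0685 CPM in the panned libraries, a log2 fold change of 8.35 ± 1.24 (SE, edgeR adjusted p = 0.00438). Scn8a, the sodium channel of mature nodes and initial segments, had 257, 277 and 330.4 CPM in the collicular libraries, against 26.7, 31.6 and 61.2 CPM in the panned libraries, a log2 fold change of 2.85 ± 0.53 (SE, edgeR adjusted p = 0.00851). Scn4b, an auxiliary sodium channel subunit, had 29.9, 46.6 and 15.3 CPM in the collicular libraries and 0 in each panned one, at least 599.8-fold higher (edgeR adjusted p = 0.00488). All 3 were called in every fit without 1 library and with the trend removed, where 9 of 24 and 7 of 30 were higher. Cacnb2, a calcium channel subunit known from ribbon synapses of photoreceptors, was the lower member, with 15.1, 3.93 and 7.12 CPM in the collicular libraries, against 64.5, 62.1 and 72.7 CPM in the panned libraries and a log2 fold change of -2.93 ± 0.72 (SE, edgeR adjusted p = 0.0225). Cacnb2 was not called without collicular replicates 1, 2 or 3, each left out in turn (edgeR adjusted p = 0.0509 to 0.0977). Higher counts were 5 to 14 when 1 library was left out (lowest without collicular replicate 2) for the first list and 3 to 11 when 1 library was left out (lowest without collicular replicates 1 or 2) for the second.

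Peptides and granule proteins split again, 4 higher and 3 lower of 18 tested, 38.9% in all, against 21.9% of all tested genes. Pcsk1n, an inhibitor of the prohormone convertase, had 295, 334 and 157 CPM in the collicular libraries, against 5.38, 5.85 and 4.79 CPM in the panned libraries, a log2 fold change of 5.61 ± 0.59 (SE, edgeR adjusted p = 0.00204), at 3.89 with the base composition trend removed. Vgf, a granule protein precursor, had 40.6, 49.7 and 30.2 CPM in the collicular libraries, against 0, 0.465 and 0 CPM in the panned libraries, a log2 fold change of 8.06 ± 1.65 (SE, edgeR adjusted p = 0.0125). Vgf was not called without collicular replicate 2 (edgeR adjusted p = 0.0534). Scg3, a secretogranin that sorts cargo into granules, had 22.4, 17.5 and 74.2 CPM in the collicular libraries, against 177, 359 and 405 CPM in the panned libraries, a log2 fold change of -3.04 ± 0.70 (SE, edgeR adjusted p = 0.0191). Scg3 was not called without collicular replicates 1 or 2, each left out in turn (edgeR adjusted p = 0.0848 to 0.0905). Cartpt, a peptide precursor found in direction-selective RGCs, had 18.1, 14.8 and 15.2 CPM in the collicular libraries, against 25.7, 234 and 232 CPM in the panned libraries; panned replicate 1 lay near the collicular values, a log2 fold change of -3.35 ± 0.82 (SE, edgeR adjusted p = 0.0227). Cartpt was not called without collicular replicates 1, 2 or 3 or panned replicate 2, each left out in turn (edgeR adjusted p = 0.0526 to 0.0957). Against FACS-sorted eye cells both had the other sign, at 0.49 for Scg3, not called, and 3.31 for Cartpt, called. In the fit without the base composition trend the list had 4 higher and 2 lower, and its median was -0.11 in place of 0.60. Higher members were 1 to 4 when 1 library was left out (lowest without collicular replicate 2).

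**Figure D4:**
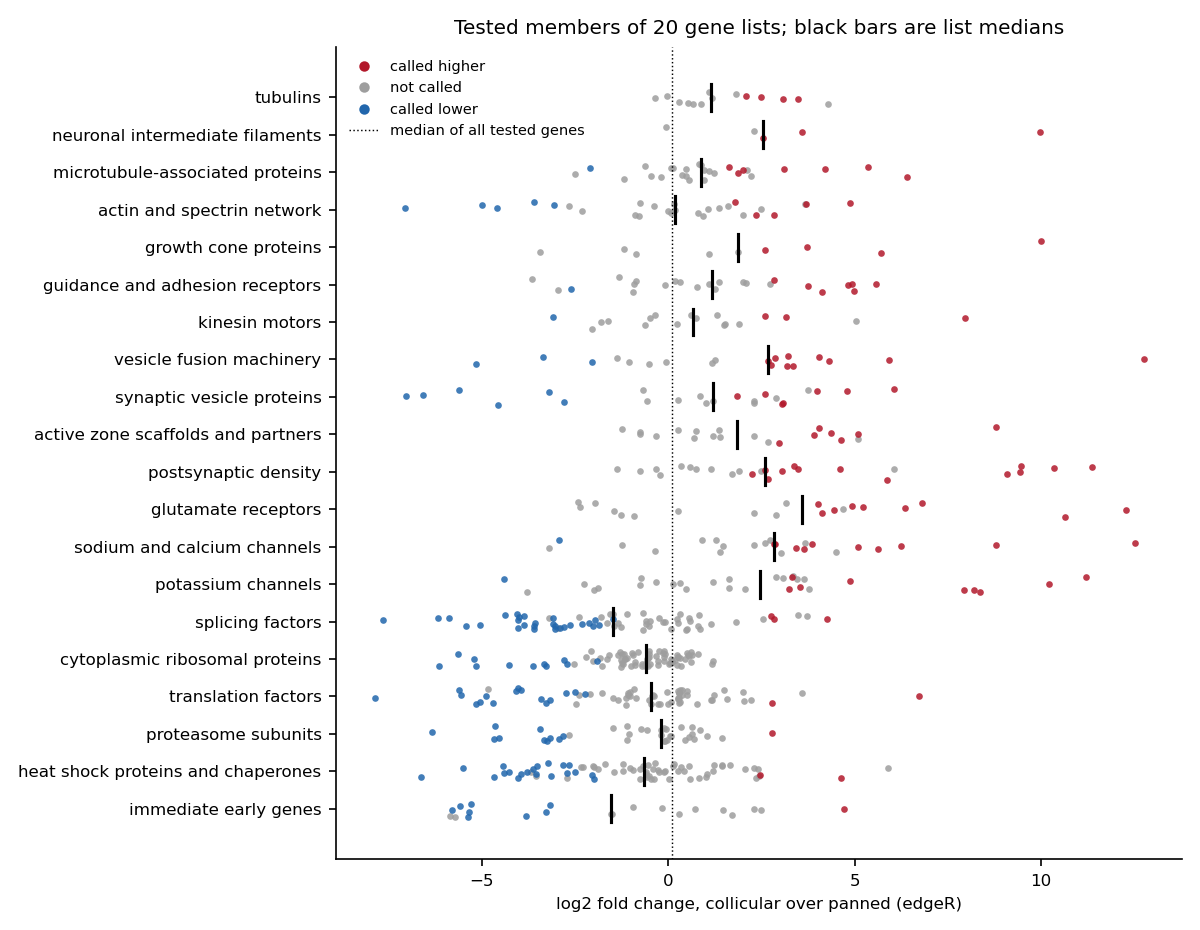
Log2 fold change (collicular over panned) of each tested member of 20 gene lists, coloured by call, with list medians as black bars and the median of all tested genes as a dotted line. Postsynaptic, channel and active zone lists hold members called higher with few or none called lower, while in this fit splicing, ribosomal, translation, proteasome and chaperone lists hold more members called lower than higher, with most members not called. On log2(TPM + 1) the ribosomal, translation and chaperone lists hold more called higher than lower. That fit called 4749 of all 13574 genes higher and 1064 lower, with a median log2 fold change of 1.27.

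Long noncoding RNAs, many of which stay in the nucleus, were higher in the collicular libraries in 6 of 13 tested cases and lower in 1. In all, 53.8% were called, against 21.9% of all tested genes. Rian and Mirg come from the same imprinted region as the abundant Meg3. Rian had 169, 139 and 258 CPM in the collicular libraries, against 1.3, 7.24 and 0.822 CPM in the panned libraries, a log2 fold change of 5.92 ± 0.98 (SE, edgeR adjusted p = 0.00588). Mirg had 55.9, 44.5 and 30.5 CPM in the collicular libraries, against 0.482, 0 and 0.89 CPM in the panned libraries, a log2 fold change of 6.56 ± 1.33 (SE, edgeR adjusted p = 0.0121). Both were under 8 CPM in all panned libraries and above 30 in all collicular ones. Malat1, a transcript of nuclear speckles, had 692, 579.6 and 1826 CPM in the collicular libraries, against 342, 411 and 417 CPM in the panned libraries; it was not called (edgeR adjusted p = 0.097), but was with the base composition trend removed, at 3.35 (edgeR adjusted p = 0.00471). Gas5, which hosts small nucleolar RNAs, had 1.72, 4.28 and 7.33 CPM in the collicular libraries, against 71, 308 and 210.4 CPM in the panned libraries, a log2 fold change of -5.47 ± 0.85 (SE, edgeR adjusted p = 0.00493), opposite to the others. After removal of the trend 5 were higher and 1 lower, and higher counts were 3 to 8 when 1 library was left out (lowest without collicular replicates 2 or 3).

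RNA-binding proteins that carry mRNA into axons and dendrites gave 8 higher and 6 lower of 35 tested. Called members were 40%, against 21.9% of all tested genes. Elavl3, a neuronal protein that stabilises mRNA, had 613, 868 and 445 CPM in the collicular libraries, against 6.42, 29.2 and 32.4 CPM in the panned libraries, a log2 fold change of 4.82 ± 0.74 (SE, edgeR adjusted p = 0.0047). Pura, which rides on kinesin-bound RNA granules, had 807, 722 and 404 CPM in the collicular libraries, against 47.1, 87.4 and 36.8 CPM in the panned libraries, a log2 fold change of 3.5 ± 0.57 (SE, edgeR adjusted p = 0.00554). Its paralog Purb had 34.5, 38.5 and 43.8 CPM in the collicular libraries, against 249.7, 639 and 560.1 CPM in the panned libraries, a log2 fold change of -3.63 ± 0.55 (SE, edgeR adjusted p = 0.00438). The paralogs thus lay on opposite sides although both hold few G and C (43.3% and 42%). With the trend removed Pura was 5.66 (edgeR adjusted p = 0.00471) and Purb -1.4 (edgeR adjusted p = 0.0741, not called). Tardbp, TDP-43, had 23.6, 18.1 and 42.2 CPM in the collicular libraries, against 250.1, 278 and 174 CPM in the panned libraries, a log2 fold change of -3.07 ± 0.55 (SE, edgeR adjusted p = 0.00769). Tardbp was not called without collicular replicates 1 or 2, each left out in turn (edgeR adjusted p = 0.0506 to 0.0527). With the trend removed the list had 4 higher and 1 lower. Lower members were 1 to 6 when 1 library was left out (lowest without collicular replicate 1), and higher ones 3 to 7 when 1 library was left out (lowest without collicular replicates 1 or 2).

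mRNAs reported in axons of other neurons, a list chosen from background knowledge, had 7 higher and 4 lower of 28. Called members were 39.3%, against 21.9% of all tested genes. Sod1, the cytosolic superoxide dismutase, had 502, 800.0 and 799.7 CPM in the collicular libraries, against 129, 224 and 219 CPM in the panned libraries, a log2 fold change of 1.88 ± 0.47 (SE, edgeR adjusted p = 0.0248). Sod1 was not called without collicular replicates 1, 2 or 3, each left out in turn (edgeR adjusted p = 0.0629 to 0.10). Eif4g2, a translation initiation factor for cap-independent start, had 5.45, 2.14 and 29.1 CPM in the collicular libraries, against 349, 922 and 516 CPM in the panned libraries, a log2 fold change of -5.61 ± 1.05 (SE, edgeR adjusted p = 0.00909). With the base composition trend removed 4 were higher and 3 lower. Higher members were 1 to 7 when 1 library was left out (lowest without collicular replicate 2).

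Oligodendrocytes myelinate axons of the colliculus. Their lists had the highest positive median log2 fold changes of the 47 lists, 9.76 for precursors and 8.19 for mature cells. The mature genes, which build and keep myelin, were called higher in 10 of 13 and precursor genes in 6 of 11, none lower, and the counts were the same with the base composition trend removed. Olig1, a transcription factor of the lineage (chromosome 16, 91269772 to 91271933), had 345, 303 and 271 CPM in the collicular libraries and 0 in every panned library, at least 5841-fold higher (edgeR adjusted p = 0.00132). Bcas1, a marker of newly forming oligodendrocytes, had 122, 166 and 186 CPM against 0, at least 2933-fold higher (edgeR adjusted p = 0.00154). Mag, an adhesion protein of the inner myelin face, had 415, 494 and 351 CPM against 0, at least 8025-fold higher (edgeR adjusted p = 0.00132). Cspg4, the NG2 proteoglycan of precursors, had 69.4, 86.4 and 46.7 CPM against 0, at least 1305-fold higher (edgeR adjusted p = 0.00236). These 4 genes were at 0 in all panned libraries and above 45 CPM in all collicular ones. Of the 13 and 11 tested members, 9 to 10 and 5 to 8 were called when 1 library was left out.

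Astrocyte genes lay on both sides. Of 16, 6 were called higher and 1 lower, 5 and 1 with the base composition trend removed. In the main fit 43.8% were called, against 21.9% of all tested genes. Ntsr2, a neurotensin receptor of astrocytes, had 137, 127 and 87.5 CPM in the collicular libraries and 0 in every panned library, at least 2254-fold higher (edgeR adjusted p = 0.00179). Fgfr3, a growth factor receptor of astrocytes, had 117, 101 and 54.5 CPM against 0, at least 1772-fold higher (edgeR adjusted p = 0.00231). Gfap, the astrocyte intermediate filament, had 347, 271 and 213 CPM in the collicular libraries, against 2.23, 2.72 and 0 CPM in the panned libraries, a log2 fold change of 7.38 ± 1.3 (SE, edgeR adjusted p = 0.00719). Glul, glutamine synthetase, known from both astrocytes and Müller glia, the radial glia of the retina, had 98.2, 92.1 and 88.3 CPM in the collicular libraries, against 55, 1861 and 2227 CPM in the panned libraries; it was called lower, a log2 fold change of -3.89 ± 1.07 (SE, edgeR adjusted p = 0.0319), with panned replicate 1 below the collicular values. Glul was not called without collicular replicates 1, 2 or 3 or panned replicates 2 or 3, each left out in turn (edgeR adjusted p = 0.068 to 0.11). Apoe, made by both, overlapped, with 4092, 2721 and 1609 CPM in collicular and 299, 2350.2 and 2735 CPM in panned libraries. Acsbg1, a fatty acid activating enzyme, Ptpn5, a neuronal phosphatase, and Timp4, a protease inhibitor, belong to no list and are named for the size of their change. Acsbg1 had 200.5, 218 and 178 CPM in the collicular libraries, at least 3784-fold higher than in the panned ones. Ptpn5 had 112, 112 and 86.1 CPM, at least 1976-fold higher, and Timp4 90.5, 69.5 and 79.2 CPM, at least 1508-fold higher. All 3 were at 0 in every panned library.

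Microglia are the resident immune cells of the brain and retina. Of 14 microglia genes 0 were called higher and 1 lower, and 0 of them had groups without overlap. Of 14 endothelial and pericyte genes 1 was higher and 1 lower, and 7 had groups without overlap. These calls are 7.14% and 14.3% of the tested members, against 21.9% of all tested genes. Groups without overlap were found in 46.8% of all tested genes. After the base composition trend was removed the microglia counts were 0 and 1, with a median of -1.85 in place of -0.32, and the vessel counts 1 and 2. Cdh5, the adhesion protein of vessel walls and the 1 vessel gene called higher, had 17.4, 21 and 10.5 CPM in the collicular libraries, against 0.0371, 0 and 0 CPM in the panned libraries, a log2 fold change of 9.6 ± 1.64 (SE, edgeR adjusted p = 0.00644). The sum of the vessel list went the other way. It was 805, 805 and 526 CPM in the collicular libraries, against 884, 1220 and 1416 CPM in the panned ones. Bsg held much of it, with 375, 350 and 220 CPM in collicular and 571, 696 and 690 CPM in panned libraries. Cldn5 had 110, 134 and 85.2 CPM in collicular and 16.1, 0 and 0 CPM in panned libraries. It was not called (edgeR adjusted p = 0.133). Of the 14 tested members, 9 had a positive log2 fold change and 5 a negative one. Transcription factors of the midbrain gave 5 higher and 1 lower of 11 tested, and the same counts with the base composition trend removed. Called members were 54.5%, against 21.9% of all tested genes. Lhx1 had 16.5, 17.9 and 30.6 CPM in the collicular libraries and 0 in every panned one, at least 394-fold higher (edgeR adjusted p = 0.00637). Otx2, which patterns the midbrain but is also a retinal factor, had 26.8, 25.9 and 35.3 CPM in the collicular libraries, against 703, 299 and 238 CPM in the panned libraries, a log2 fold change of -3.82 ± 0.60 (SE, edgeR adjusted p = 0.00493). The list's sum was 345, 385 and 313 CPM in the collicular libraries, against 767, 508 and 404 CPM in the panned ones. Otx2 held much of the panned sum. Some of these factors, among them Lhx1, thus had mRNA in the collicular capture. What part RNA of cells resident in the colliculus had in the neuronal gene groups above was not tested.

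Genes of photoreceptors were lower in the collicular libraries with no exception among those tested for rods: 24 of 24 rod genes and 9 of 10 cone genes were called lower, the same counts as with the base composition trend removed. Crx, the transcription factor that switches on photoreceptor genes (chromosome 7, 15865947 to 15879968), had 0, 0 and 0.0409 CPM in the collicular libraries, against 2960.1, 413 and 616 CPM in the panned libraries, a log2 fold change of -16.27 ± 1.51 (SE, edgeR adjusted p = 0.00156). Its collicular values rest on 1 count in all, under the floor of 3 counts, so the size of this change is loosely known. Slc24a1, the sodium, calcium and potassium exchanger of rod outer segments, had 0 in every collicular library, against 1089, 339 and 684 CPM in the panned libraries, at least 23129-fold lower (edgeR adjusted p = 0.00154). Kcnv2, a photoreceptor potassium channel subunit, had 0 in the collicular libraries, against 717, 348 and 178 CPM in the panned ones, at least 14146-fold lower (edgeR adjusted p = 0.00198). Panned replicate 1 was the highest in all 3. When 1 library was left out, 23 to 24 rod genes and 6 to 9 cone genes were called lower, the fewest without collicular replicate 1 for both lists and also without collicular replicate 2 for rods.

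The rod genes lay lower together, and their promoters are shown for the CRX-type letters TAATCC, or GGATTA on the other strand, within 250 bases before and 50 after each start site. Of 25 rod genes 18 matched an entry of the RefSeq promoter table (GRCm38.p6), and 9 of these 18 hold the letters, against 7.06% of all 32851 promoters in that table. Of 12 cone genes 7 matched, with 9 promoters, and 2 of these 9 hold it. Crx and Cngb1, a subunit of the rod cyclic nucleotide-gated channel, each hold 2 matches, given in capitals below, 94 and 21 bases upstream of the start in Crx and 58 and 25 in Cngb1. A match of letters is a description and not a measured binding site. The Crx window is chr7:15879906-15880205, minus strand and the Cngb1 window chr8:95306536-95306835, minus strand, both 5′ to 3′ on the gene's strand.
Crx: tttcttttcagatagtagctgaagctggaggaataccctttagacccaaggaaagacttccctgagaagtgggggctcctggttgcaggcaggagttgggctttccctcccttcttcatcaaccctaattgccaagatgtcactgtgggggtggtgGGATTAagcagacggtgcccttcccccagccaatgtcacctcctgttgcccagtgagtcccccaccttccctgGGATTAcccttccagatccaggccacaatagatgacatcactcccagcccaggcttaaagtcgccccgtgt
Cngb1: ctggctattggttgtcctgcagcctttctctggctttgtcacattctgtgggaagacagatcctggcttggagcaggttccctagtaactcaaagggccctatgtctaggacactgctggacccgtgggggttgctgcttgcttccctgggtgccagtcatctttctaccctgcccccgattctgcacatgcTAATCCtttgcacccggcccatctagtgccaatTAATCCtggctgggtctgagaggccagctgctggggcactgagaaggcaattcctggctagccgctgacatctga

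Bipolar, Müller glia and lens lists also had most of their tested members called lower in the collicular libraries. Bipolar cells, which link photoreceptors to RGCs, had 9 of 14 tested genes called lower and 0 higher. Cabp5, a calcium-binding protein of bipolar cells, had 0 in the collicular libraries, against 129.8, 129.8 and 153 CPM in the panned ones, at least 4004-fold lower (edgeR adjusted p = 0.00154). Trpm1, the cation channel of ON bipolar cells, had 0.0613, 0.0638 and 0.0819 CPM in the collicular libraries, against 208, 81.1 and 77.9 CPM in the panned libraries, a log2 fold change of -10.7 ± 0.90 (SE, edgeR adjusted p = 0.00132). Cabp5 was nearly level across the 3 panned libraries. Müller glia had 8 of 10 called lower. Rlbp1, which binds the visual chromophore in Müller glia, had 3.98, 2.62 and 12.1 CPM in the collicular libraries, against 213, 1811 and 1327 CPM in the panned libraries, a log2 fold change of -7.49 ± 1.08 (SE, edgeR adjusted p = 0.00394). Dkk3, a secreted protein of Müller glia, had 9.8, 8.87 and 18.6 CPM in the collicular libraries, against 74.3, 1594 and 1471 CPM in the panned libraries, a log2 fold change of -6.4 ± 1.12 (SE, edgeR adjusted p = 0.00701). Both were lowest among panned libraries in replicate 1. Lens crystallins and related genes had 13 of 17 called lower and 1 higher. Against FACS-sorted eye cells, 3 of them were higher and 0 lower. Cryaa, the alpha-A crystallin, had 0, 0.0638 and 0 CPM in the collicular libraries, against 73.6, 366 and 491 CPM in the panned libraries, a log2 fold change of -13.46 ± 1.37 (SE, edgeR adjusted p = 0.00199). Its collicular values rest on 2 counts in all, under the floor of 3 counts, so the size of this change is loosely known. Bfsp2, a lens filament protein, was the higher one, with 19.7, 36 and 24.6 CPM in the collicular libraries, against 2.71, 2.66 and 0.822 CPM in the panned libraries and a log2 fold change of 3.69 ± 0.97 (SE, edgeR adjusted p = 0.0273). Bfsp2 was not called without collicular replicates 1, 2 or 3, each left out in turn (edgeR adjusted p = 0.0681 to 0.135), and against the 3 immunopanned libraries without EU capture it had the other sign, -7.01. Amacrine and horizontal cell genes gave 4 lower of 11, among them Pax6 with 1.81, 0.958 and 5.57 CPM in collicular and 24.4, 329.7 and 421 CPM in panned libraries. The amacrine and horizontal list had a median log2 fold change of 0.26, of the other sign at -2.27 with the base composition trend removed. In that fit 10 bipolar, 8 Müller glia, 14 lens and 5 amacrine and horizontal genes were called lower, and 0 of the lens list higher. Lower counts were 7 to 9 when 1 library was left out (lowest without collicular replicate 2) for bipolar cells, 5 to 10 when 1 library was left out (lowest without collicular replicate 3) for Müller glia, 10 to 14 when 1 library was left out (lowest without collicular replicate 3 or panned replicate 2) for the lens list and 1 to 5 when 1 library was left out (lowest without collicular replicate 2) for amacrine and horizontal cells.

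Genes for the mitochondrion lie in 2 genomes. All 13 protein genes of the mitochondrial genome were called lower, also without any 1 library and with the base composition trend removed, where the median log2 fold change was -4.87 in place of -6.79. They hold a median of 37.1% G and C. mt-Co1, the core of cytochrome oxidase, had 2069, 1058 and 2460.4 CPM in the collicular libraries, against 27154, 435343 and 263813 CPM in the panned libraries, a log2 fold change of -7.02 ± 1.17 (SE, edgeR adjusted p = 0.00613). mt-Atp8, a small ATP synthase subunit, had 7.35, 4.82 and 10.9 CPM in the collicular libraries, against 509.6, 3150.2 and 2634 CPM in the panned libraries, a log2 fold change of -8.09 ± 0.91 (SE, edgeR adjusted p = 0.00236). Panned replicate 1 was far below panned replicates 2 and 3 and still above every collicular library. mt-encoded RNA made up 1.04%, 0.407% and 1.76% of counts in the collicular libraries, against 7.89%, 55.2% and 46.5% in the panned ones, and a fit without mitochondrial and rRNA genes called 1675 genes higher and 1721 lower. Nuclear copies of mitochondrial genes can share their reads.

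Other subunits of the same respiratory complexes come from nuclear genes. Of 76, 2 were called higher and 11 lower, with a median log2 fold change of -0.18, and of 78 mitochondrial ribosomal protein genes 0 and 6, with a median of -0.33. In all, 17.1% and 7.69% of the tested members were called, against 21.9% of all tested genes. On log2(TPM + 1), whose all-gene median was 1.27, 18 respiratory genes were higher and 4 lower. Sdhc, a subunit of succinate dehydrogenase, had 278, 449 and 199.9 CPM in the collicular libraries, against 80.9, 52.9 and 70.3 CPM in the panned libraries, a log2 fold change of 2.18 ± 0.51 (SE, edgeR adjusted p = 0.0192). Sdhc was not called without collicular replicates 1 or 2 or panned replicate 2, each left out in turn (edgeR adjusted p = 0.0543 to 0.0986). Uqcrb, a subunit of the cytochrome bc1 complex, had 2.17, 0.319 and 2.33 CPM in the collicular libraries, against 37.1, 264 and 205 CPM in the panned libraries, a log2 fold change of -6.71 ± 1.1 (SE, edgeR adjusted p = 0.00581). Ndufs1, a subunit of complex I, had 4.44, 2.07 and 11.9 CPM in the collicular libraries, against 137, 166 and 114 CPM in the panned libraries, a log2 fold change of -4.5 ± 0.77 (SE, edgeR adjusted p = 0.00676). Mrpl50, of the large mitochondrial ribosomal subunit, had 0.521, 0.351 and 0.941 CPM in the collicular libraries, against 36.3, 40.2 and 42.3 CPM in the panned libraries, a log2 fold change of -6.03 ± 0.92 (SE, edgeR adjusted p = 0.00457). The last 3 were called in all fits without 1 library and with the trend removed, where 9 and 10 genes of the lists were lower. Lower counts were 2 to 15 when 1 library was left out (lowest without collicular replicate 2) and 1 to 7 when 1 library was left out (lowest without collicular replicates 1 or 2).

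Ribosomal proteins and translation factors make up the translation machinery. On log2(TPM + 1), where the median log2 fold change of all genes was 1.27, 12 ribosomal protein genes were called higher and 8 lower, and 15 translation factors higher and 11 lower. Of 80 tested cytoplasmic ribosomal protein genes 0 were higher and 11 lower, and of 66 translation factors 2 and 16. These calls are 13.8% and 27.3% of the tested members, against 21.9% of all tested genes. Rpl7, of the large subunit, had 11.7, 16.8 and 62.1 CPM in the collicular libraries, against 997, 1502 and 2028 CPM in the panned libraries, a log2 fold change of -5.64 ± 0.81 (SE, edgeR adjusted p = 0.00394). Rps24, of the small subunit, had 14.8, 11.4 and 38.8 CPM in the collicular libraries, against 269, 671 and 1388 CPM in the panned libraries, a log2 fold change of -5.16 ± 0.83 (SE, edgeR adjusted p = 0.00552). Both were below all panned values in each collicular library, highest there in replicate 3. Processed pseudogenes of ribosomal protein genes can share their reads. Eif3e, a subunit of initiation factor eIF3, had 0.796, 0.287 and 3.93 CPM in the collicular libraries, against 311, 523 and 339.9 CPM in the panned libraries, a log2 fold change of -7.88 ± 1.1 (SE, edgeR adjusted p = 0.00357). Eif4ebp2, the neuronal brake on cap-dependent initiation, was 1 of the 2 higher factors, with 69.8, 107 and 62.2 CPM in the collicular libraries, against 8.57, 11.4 and 14.8 CPM in the panned libraries, a log2 fold change of 2.78 ± 0.60 (SE, edgeR adjusted p = 0.0147). Eif4ebp2 was not called without collicular replicates 1 or 2, each left out in turn (edgeR adjusted p = 0.065 to 0.0886). With the base composition trend removed 23 ribosomal protein genes and 10 factors were lower, so the first count grew and the second shrank. Lower counts were 4 to 20 when 1 library was left out (lowest without collicular replicate 2) and 6 to 17 when 1 library was left out (lowest without collicular replicate 2).

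Chaperones fold proteins and the proteasome removes them. On log2(TPM + 1), where the median log2 fold change of all genes was 1.27, 5 proteasome genes were higher and 8 lower. There 17 chaperones were higher and 10 lower. The proteasome, which degrades tagged proteins, had 1 gene higher and 10 lower of 36 tested, and chaperones 2 and 20 of 74, while the other members were not called. These calls are 30.6% and 29.7% of the tested members, against 21.9% of all tested genes. Psmc6, an ATPase of the proteasome's cap (chromosome 14, 45329788 to 45349705), had 2.11, 3.0 and 2.09 CPM in the collicular libraries, against 189.6, 259 and 133 CPM in the panned libraries, a log2 fold change of -6.33 ± 0.62 (SE, edgeR adjusted p = 0.00179). Cct4, a subunit of the chaperonin that folds tubulin and actin, had 1.59, 4.6 and 4.17 CPM in the collicular libraries, against 394, 339 and 297 CPM in the panned libraries, a log2 fold change of -6.63 ± 0.67 (SE, edgeR adjusted p = 0.0019). Both were under 5 CPM in all collicular libraries and over 100 in all panned ones. Hsp90ab1 and Hsp90aa1, the constitutive and the inducible cytosolic HSP90, lay on opposite sides. Hsp90ab1 had 2216, 3522 and 2052 CPM in the collicular libraries, against 308, 500.1 and 606 CPM in the panned libraries, a log2 fold change of 2.46 ± 0.50 (SE, edgeR adjusted p = 0.0119). Hsp90aa1 had 499.8, 657 and 1246 CPM in the collicular libraries, against 4514, 2732 and 2262 CPM in the panned libraries, a log2 fold change of -1.98 ± 0.54 (SE, edgeR adjusted p = 0.0319). Hsp90ab1 was not called without collicular replicate 2 (edgeR adjusted p = 0.0638), and Hsp90aa1 not called without collicular replicates 1 or 2 or panned replicate 2, each left out in turn (edgeR adjusted p = 0.0571 to 0.177). With the base composition trend removed Hsp90ab1 was still called (1.83) and Hsp90aa1 was not (-0.56), and in the fit on log2(TPM + 1) Hsp90aa1 had the other sign, 1.22, without a call. With the trend removed the counts were 7 lower for the proteasome and 14 lower for chaperones. Lower counts were 4 to 10 when 1 library was left out (lowest without collicular replicate 2) and 8 to 20 when 1 library was left out (lowest without collicular replicate 2).

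Splicing factors, proteins that work in the nucleus, had 28 of 67 members called lower and 3 higher, a median log2 fold change of -1.49 and a median of 46.6% G and C. In all, 46.3% were called, against 21.9% of all tested genes. Hnrnpk had 80.8, 74.9 and 92.1 CPM in the collicular libraries, against 826, 1111 and 1050.3 CPM in the panned libraries, a log2 fold change of -3.59 ± 0.46 (SE, edgeR adjusted p = 0.00261). Srsf3 had 34.6, 21.7 and 36.4 CPM in the collicular libraries, against 446, 466 and 567 CPM in the panned libraries, a log2 fold change of -3.99 ± 0.50 (SE, edgeR adjusted p = 0.00259). Hnrnpa0 had 1.23, 0.83 and 3.19 CPM in the collicular libraries, against 208, 468 and 385 CPM in the panned libraries, a log2 fold change of -7.66 ± 0.81 (SE, edgeR adjusted p = 0.00211). All 3 bind pre-mRNA and were lower in every collicular library. Hnrnpa0, at 55.4% G and C, stands on the other side of the composition trend, and with that removed it was -8.78, against -1.55 in Hnrnpk and -1.93 in Srsf3, all called. On log2(TPM + 1), where the all-gene median was 1.27, 11 were higher and 15 lower. With the trend removed 15 were lower and 4 higher, with a median of -0.82. Lower counts were 11 to 27 when 1 library was left out (lowest without collicular replicate 1).

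Glycolysis enzymes had calls on both sides. Of 17, 3 were higher and 5 lower, 47.1% in all, against 21.9% of all tested genes. On log2(TPM + 1), where the all-gene median was 1.27, 5 were higher and 1 lower. Enolase has a neuronal form, Eno2, and a general form, Eno1. Eno2 had 517, 689 and 348 CPM in the collicular libraries, against 28.8, 65.7 and 82 CPM in the panned libraries, a log2 fold change of 3.14 ± 0.58 (SE, edgeR adjusted p = 0.00842). Eno1 had 873, 1302 and 849.9 CPM in the collicular libraries, against 4538, 4244 and 5590.1 CPM in the panned libraries, a log2 fold change of -2.25 ± 0.47 (SE, edgeR adjusted p = 0.0128). Lactate dehydrogenase likewise has an Ldhb chain, known for heart and neurons, and an Ldha chain, known for muscle and photoreceptors. Ldhb had 718, 747 and 455 CPM in the collicular libraries, against 85.7, 227 and 166 CPM in the panned libraries, a log2 fold change of 2.0 ± 0.52 (SE, edgeR adjusted p = 0.027). Ldha had 399, 315 and 272 CPM in the collicular libraries, against 4715, 821 and 1105 CPM in the panned libraries, a log2 fold change of -2.75 ± 0.72 (SE, edgeR adjusted p = 0.0276), highest in panned replicate 1. Both pairs thus lay on opposite sides without overlap. With the base composition trend removed Eno1 and Ldha were still called lower (-3.44 and -3.3), while Eno2 and Ldhb were not called (1.73 and 1.11, edgeR adjusted p = 0.0502 and 0.154). Eno1 was not called without collicular replicates 1, 2 or 3, each left out in turn (edgeR adjusted p = 0.0563 to 0.104). Ldha was not called without collicular replicates 1, 2 or 3, each left out in turn (edgeR adjusted p = 0.0977 to 0.108), and Ldhb not called without collicular replicates 1 or 2 or panned replicate 3, each left out in turn (edgeR adjusted p = 0.0559 to 0.109). With the trend removed the list had 0 members higher and 9 lower, and lower counts were 0 to 4 when 1 library was left out (lowest without collicular replicates 1 or 2).

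**Figure D5:**
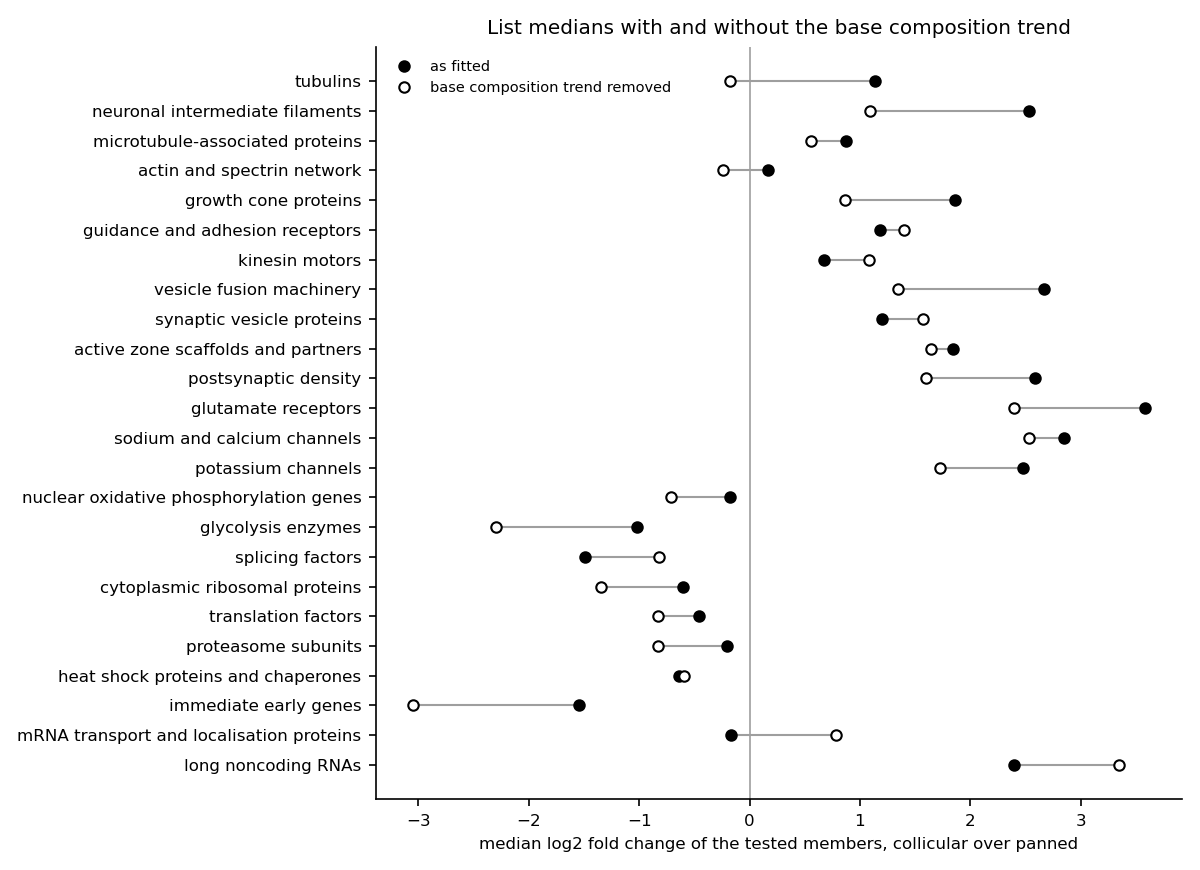
Median log2 fold change (collicular over panned) of the tested members of 24 gene lists, as fitted (filled) and with each library's trend of log2 CPM on base composition removed (open). The glycolysis and immediate early lists moved further down, splicing factors moved up, and of the lists drawn the tubulin, actin and mRNA transport medians changed sign.

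Immediate early genes, transcribed within minutes of a stimulus, were called lower in 8 of 21 tested cases and higher in 1. Called members were 42.9%, against 21.9% of all tested genes. Btg2, an antiproliferative gene of this class, had 13.6, 27.2 and 11.7 CPM in the collicular libraries, against 254, 142 and 339 CPM in the panned libraries, a log2 fold change of -3.81 ± 0.62 (SE, edgeR adjusted p = 0.00556). Junb, a part of the AP-1 factor, had 4.23, 2.81 and 2.99 CPM in the collicular libraries, against 24.2, 143 and 228 CPM in the panned libraries, a log2 fold change of -5.3 ± 0.90 (SE, edgeR adjusted p = 0.00647). Jund, the AP-1 member that is made without stimulus, had 11.6, 17.9 and 15.3 CPM in the collicular libraries, against 0.148, 0.598 and 0.959 CPM in the panned libraries, a log2 fold change of 4.72 ± 1.27 (SE, edgeR adjusted p = 0.0296); it holds 67.1% G and C. Jund was not called without collicular replicates 1, 2 or 3 or panned replicate 2, each left out in turn (edgeR adjusted p = 0.0551 to 0.122). Btg2 and Junb were called lower without any 1 library and with the base composition trend removed, at -3.92 and -7.48. The direction depended on which somal libraries were used. Against the 3 immunopanned libraries made without EU capture, Junb had a log2 fold change of 0.62 and was not called (edgeR adjusted p = 0.716). With 2 of those 3 libraries, 4 list members were called higher and 2 lower. Once the trend was removed 9 members were lower, and lower counts were 5 to 8 when 1 library was left out (lowest without collicular replicates 2 or 3).

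The immediate early promoters were searched for the cAMP response element TGACGTCA, which reads the same on both strands. Of 23 genes 19 matched the RefSeq promoter table, and 2 of these 19, Btg2 and Dusp1, hold it, against 2.03% of all genes there. The Btg2 window is shown because Btg2 is described above, with the element in capitals 166 bases upstream of the start (chr1:134079106-134079405, minus strand, GRCm38.p6).
Btg2: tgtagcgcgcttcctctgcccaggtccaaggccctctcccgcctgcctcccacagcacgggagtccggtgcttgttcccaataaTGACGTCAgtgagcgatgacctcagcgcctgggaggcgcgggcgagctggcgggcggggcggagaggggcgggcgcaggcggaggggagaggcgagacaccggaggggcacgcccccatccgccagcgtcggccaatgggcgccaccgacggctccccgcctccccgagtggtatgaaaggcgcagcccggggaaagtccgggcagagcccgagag

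Genes of axon injury and the integrated stress response gave 1 higher and 3 lower of 17 tested, near the background share. Atf3, the transcription factor that RGCs switch on after axotomy, had 0, 1.72 and 0.123 CPM in the collicular libraries, against 20.7, 112 and 113 CPM in the panned libraries, a log2 fold change of -7.04 ± 1.69 (SE, edgeR adjusted p = 0.0216); it was low in panned replicate 1 and high in replicates 2 and 3. Atf3 was not called without collicular replicate 3 (edgeR adjusted p = 0.077). Ecel1, a peptidase known from injured neurons, had 21.4, 28.2 and 15.3 CPM in the collicular libraries and 0 in all panned ones, at least 418-fold higher (edgeR adjusted p = 0.00625). The animals of all 6 libraries are labelled naïve. The vacuolar proton pump had 1 gene higher and 2 lower of 16 tested, and Rab GTPases 3 and 6 of 53. Retinal pigment epithelium genes had 0 higher and 1 lower of 5 tested. These calls are 18.8%, 17% and 20% of the tested members, against 21.9% of all tested genes. Without the base composition trend the injury list had 1 higher and 5 lower, with a median of -1.3 in place of -0.02. There the proton pump had 1 and 1, Rab GTPases 2 and 4, and the pigment epithelium list 0 and 0.

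The transcripts of highest level per length (TPM) were of other kinds than the neuronal genes above. CT010467.1, annotated as rRNA, averaged 138804 ± 138694 TPM in the collicular libraries and 140.6 ± 89.2 TPM in the panned libraries (SD, n = 3 each), and it took 10.9%, 4.54% and 33.7% of counts in the collicular libraries. Haemoglobin genes, made by red cells, filled 3 of the next 4 places. Hba-a2 had 620.1, 4124 and 1768 CPM in the collicular libraries, against 93.1, 81.3 and 15.5 CPM in the panned libraries, a log2 fold change of 5.1 ± 0.95 (SE, edgeR adjusted p = 0.00893). Hbb-bs had 742, 4110.3 and 2146 CPM in the collicular libraries, against 129, 143 and 9.93 CPM in the panned libraries, a log2 fold change of 4.64 ± 1.05 (SE, edgeR adjusted p = 0.0178). Hbb-bs was not called without collicular replicate 2 (edgeR adjusted p = 0.0602). Both were lowest in collicular replicate 1 and highest in replicate 2. Hba-a1 and Hba-a2 are near-identical copies, so the split of reads between them is uncertain. Among the panned libraries, 8 of the 10 genes of highest level were mitochondrially encoded, led by mt-Co2 with 2294 ± 916 TPM in the collicular libraries and 140038 ± 90851 TPM in the panned libraries.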

How the data were processed

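The authors deposited estimated counts per gene, not scaled between libraries, and TPM values, scaled by transcript length and library total. Salmon and mm10 are named in the submitters' processing notes, without versions, and read filters were not stated there. The main test was edgeR 4.0.16 in R 4.3.3 on the estimated counts of the 6 libraries (filterByExpr, TMM, robust quasi-likelihood F test, no covariate), with Benjamini-Hochberg adjustment over all tested genes. Standard errors are the log2 fold change divided by the root of F. Bounds against a group at 0 use a floor of 3 counts over the group's summed library sizes, which covers counting error only. DESeq2 1.42.0 on rounded counts and limma 3.58.1 on log2(TPM + 1) were alternatives. Positions and the percent of G and C came from GENCODE M21, which matched 54097 of 54331 genes. The base composition trend, a loess of log2 CPM per library removed through offsets, was added after seeing the data. Simulated counts were drawn with edgeR's estimates of spread, without a base composition trend and with 199 of 14813 genes changed. There edgeR called 132 of these and 10 others. It called 32 of 34 genes lowered and 33 of 33 raised by 8 on the log2 scale, and 6 of 33 lowered and 11 of 33 raised by 3. Members, gene lists and named genes were chosen with earlier results of these data known. The rule for names took the 12 largest called changes per direction (average log2 CPM of 4 or more, groups apart, no predicted symbol), in each list the 4 members of highest mean TPM and the 3 of smallest adjusted p per direction, some fixed names, and the 10 genes of highest TPM per group. Of the 342 genes so named, those printed were picked after their values were seen. Single values of some of these genes are not reported here.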

Additional observations from a re-analysis of the deposited data

How the results depend on the processing

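No paired analysis was possible because the title codes of the collicular and panned libraries share no replicate numbers. Against 3408 genes called (1659 higher and 1749 lower), leaving out 1 library gave 950 to 3850 calls in all, 322 to 2067 higher and 628 to 1783 lower, fewest without collicular replicate 2. DESeq2 called 5698 (2911 higher and 2787 lower), and on the simulated data it called 135 unchanged genes beside 166 changed ones. Those counts were drawn with edgeR's own estimates of spread and few changed genes, so they do not give either tool's error rate in these data. Removing the base composition trend, an alternative chosen after seeing the data, gave 2364 (1059 and 1305). On log2(TPM + 1) limma called 5813 (4749 and 1064), on log2(TPM + 0.1) 5207 (4268 and 939), and without a TPM filter 3911 (3304 and 607). In these fits 81.7%, 82.0% and 84.5% of calls were higher, against 48.7% in the count fit, and the median log2 fold change of all genes was 1.27, 1.75 and 0.31, so that directions there are read against that shift. Other panned or sorted cells gave other counts: 5972 against FACS-sorted eye cells (3160 and 2812), 7082 against 2 immunopanned libraries without EU capture (3653 and 3429), and 0 against all 3 of those (0 higher and 0 lower, edgeR, with 4709 of 15433 genes at an unadjusted p under 0.05). The cause was not tested. RLE size factors, all 5 P14 collicular EU libraries, no count filter, no robust dispersion, removal of a length trend, and removal of mitochondrial, rRNA or eye genes kept all 3 counts within 1.5 times. Of 140 named genes called, 109 were also called with the base composition trend removed, 95 in all 6 fits without 1 library, 140 by DESeq2 and 127 by limma on TPM.

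Some named genes changed sign. Against FACS-sorted eye cells the log2 fold changes were 6.04 for Pou4f1, 4.5 for Sncg, 4.30 for Nefl, 0.79 for Cntnap2, 3.78 for Gad1, 3.59 for Kcnd3, 0.49 for Scg3 and 3.31 for Cartpt. Against the 3 immunopanned libraries without EU capture they were -1.22 for Tubb2b, -7.01 for Bfsp2 and 0.62 for Junb. With 2 of these libraries they were -1.77 for Tubb2b, -1.45 for Tubb2a, -2.11 for Tuba1a, -7.56 for Bfsp2, -0.13 for Hsp90ab1, 0.38 for Fos and 0.17 for Junb. Map2 had 0.0016 on log2(TPM + 1), with and without the TPM filter, and 0.0020 on log2(TPM + 0.1), and Hsp90aa1 had 1.22 in all 3 of these fits. The cause of these changes was not tested. With 3 libraries a side, the simulation called 11 of 33 genes raised by 3 on the log2 scale, so a gene not called is not shown to be equal. A gene's exact 0 in 3 panned libraries limits its level only to the floor of 3 counts.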

Other observations

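Gene types differed between the calls. Among the 1659 genes called higher in the collicular libraries, 85.5% were annotated as protein coding, 10.8% as long noncoding RNA and 3.32% as pseudogenes. Among the 1749 genes called lower these shares were 94.3%, 4.57% and 1.09%, and among the 12132 genes not called they were 86.1%, 11.4% and 2.38%. These shares were not tested.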
